A study of Homo sapiens with 12 samples.

Results

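The 9 chemokine receptor genes CXCR4, CCR7, CCR9, CCR1, CCR2, CXCR2, CX3CR1, CCR3 and CXCR3 were followed through a differentiation of human embryonic stem cells. They were chosen by symbol, as the rows of the count table whose Ensembl ID maps to one of these names, and make up 9 of 36601 gene IDs. Of these, 8 had enough counts for the test and CCR9 did not. RNA was sequenced in bulk from 12 libraries of H9 (WA09), an established human embryonic stem cell line of wild-type genotype, taken on a course directed at γδ T cells. The labels call the 3 libraries of day 10 hematopoietic progenitors, the 3 of day 15 and the 3 of day 20 T progenitors, and the 3 of day 25 mature γδ T cells. All are labelled as cytokine-induced and as 1 batch. Before day 10 the cells of every group had met CHIR99021, BMP4, Activin A and a Rock inhibitor, then VEGF and bFGF, and then also Flt3L, IL-7, SCF and SB431542. From day 10 the medium held serum, DLL4 (a Notch ligand), SCF, IL-7 and Flt3L. The stem cells had been kept on mouse embryonic fibroblast feeders, and any reads from these were not examined. Nothing in the labels says that the libraries of a day came from separate cultures, so p-values measure the spread among these libraries alone, and that spread may be technical.

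Chemokine receptors are seven-pass membrane proteins that couple to inhibitory G proteins and steer cells toward secreted chemokines. CXCR4 holds blood progenitors near CXCL12 in marrow. CCR7 and CCR9 guide T-cell precursors into and within the thymus, where CCL19, CCL21 and CCL25 are made. CCR1, CCR2, CXCR2 and CX3CR1 bring monocytes, macrophages and neutrophils to tissues, CCR3 is the eotaxin receptor of eosinophils and basophils, and CXCR3 marks activated T and natural killer cells.

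The libraries held 27026196 to 39811230 counts each. Levels are in CPM, which scales each gene's counts to the depth of its library, here after edgeR's TMM adjustment, and are given as mean ± SD of 3 libraries, and changes are log2 fold changes ± SE from edgeR's quasi-likelihood test with Benjamini-Hochberg adjustment, called at an adjusted p under 0.05. The CD3 genes, which every mature T cell uses, were at or near 0 in these libraries. CD3E and CD3G had 0 counts at days 10 and 15, CD3D and CD3G had 0 counts at day 25, and CD3E had 17 counts over the 3 day 25 libraries. Constant-region genes of the γδ receptor were detected: TRGC1 stood at 13.2 ± 2.46, 24.7 ± 1.7 and 10 ± 0.871 CPM at days 15, 20 and 25, TRGC2 at 7.77 ± 1.67, 13.9 ± 1.24 and 4.9 ± 0.0443, and TRDC at 5.81 ± 0.429, 1.46 ± 0.548 and 0.378 ± 0.299. All 3 rose from day 10 to day 15 and fell from day 20 to day 25. The 12 T-cell markers checked summed to 16.1 to 18.7 CPM at day 25. Monocyte and macrophage markers, 6 genes, summed to 3950 to 4100 CPM on that day. The 6 neutrophil markers came to 5820 to 5930 CPM and 4 stromal markers to 3670 to 3740. The days are thus named here by number and not by cell type. In bulk RNA, fewer cells of a type and less RNA per cell cannot be told apart.

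Between days 10 and 15, the 8 tested receptors all rose, which sets 8 of 8 beside 42.4% of the 20183 tested genes called higher. All 8 rose at least 2-fold, against 28.2% of tested genes, and their median log2 fold change was 3.16 against 0.20 over all tested genes. CCR3, CCR7 and CXCR3, with 2, 16 and 8 counts at day 10, passed the filter on low counts only through later days. A rise from day 10 was thus favoured in advance for them, as for any tested gene of that kind. From day 15 to day 20, 7 of 8 rose (40.6% of tested genes), 6 of them at least 2-fold (23.7%), with a median of 2.05 against 0.10. Lower calls, which none of the 8 had in either interval, took 30.8% and 36% of tested genes. CXCR3 was the receptor not called there. Between days 20 and 25 the receptors did not move together. CCR1 and CXCR2 rose, 2 of 8, which is near the 24.5% of tested genes called higher. CXCR4, CCR2, CCR3 and CX3CR1 fell, 4 of 8 beside 25.1%, while CCR7 and CXCR3 were not called, and the median was -0.35 against -0.03. At 2-fold or more in that interval, CCR2 was the 1 receptor lower (6.86% of tested genes) and 0 were higher (6.7%).

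Across the whole course, from day 10 to day 25, all 8 tested receptors rose (38.6% of tested genes), each at least 2-fold (26.5%), with a median of 4.81 against 0.02. Day 20 against day 10 gave the same counts, 8 of 8 higher (36.7%) and 8 at 2-fold or more (24.9%). The limit that the filter sets for CCR3, CCR7 and CXCR3 holds for both comparisons with day 10. Day 25 against day 15 left 6 of 8 higher (40.2%), all 6 at least 2-fold (24.6%), with CX3CR1 and CXCR3 not called. These comparisons share libraries, so their values are given side by side and not as separate support.

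**Figure D1:**
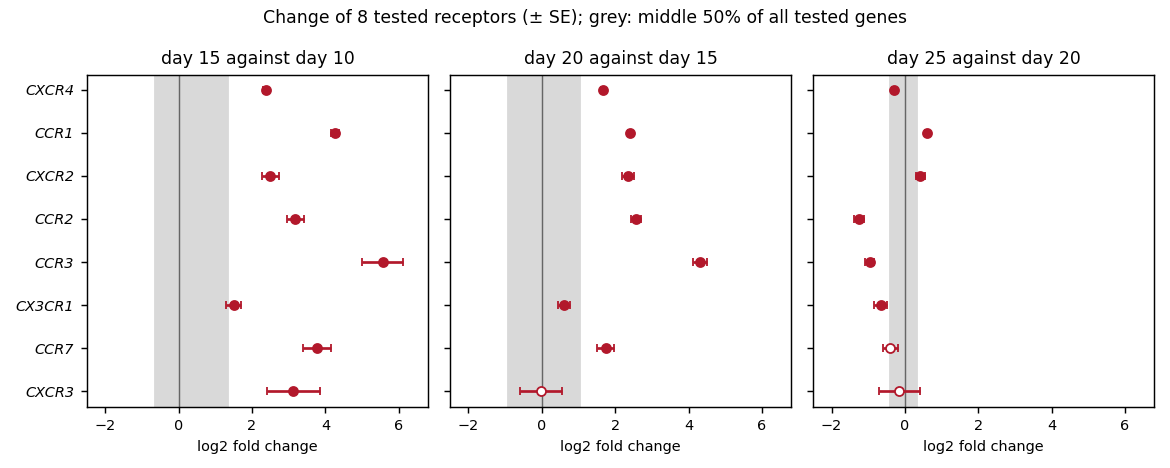
Change of the 8 tested receptors over each interval, as log2 fold change (x axis) with bars of 1 SE, filled where called and open where not, over a grey band that spans the middle 50% of all tested genes. All points lie right of the band from day 10 to day 15, and from day 20 to day 25 they lie on both sides of 0. The day 15 against day 10 point of CCR3 rests on 2 counts at day 10 and depends on the prior count of the fit.

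The direction of the first 2 intervals did not depend on the scaling. With library sizes in place of TMM factors, the median of all tested genes moved to -0.32, 0.73 and -0.19 over the 3 successive intervals, and the share of higher among called genes moved from 57.9% to 39.2%, from 53% to 72.1% and from 49.4% to 31.5%. The receptors then gave 8 higher and 0 lower, 7 higher and 0 lower, and 1 higher and 5 lower, with medians of 2.63, 2.67 and -0.51. For day 25 against day 15 that share moved from 51.6% to 66.6% and the median of all tested genes to 0.52, with 7 receptors higher, 0 lower and a median of 1.81. Relative to the median of all genes, the receptors were higher in the first 2 intervals and for day 25 against day 15, and lower from day 20 to day 25, under both scalings.

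CXCR4, the receptor of CXCL12, was the most abundant of the 9 per kilobase until day 20. It lies on chromosome 2 (GRCh38, 136114349 to 136118165, minus strand; ENSG00000121966). Its libraries read 8.38, 10.1 and 11 CPM at day 10, 49.8, 52 and 49.9 on day 15, 167, 158 and 153 at day 20, and 128, 129 and 131 at day 25. No 2 days overlapped, and day 20 was the highest. CXCR4 rose 5.15-fold to day 15 (2.37 ± 0.07, adjusted p = 7.3e-31) and 3.16-fold to day 20 (1.66 ± 0.05, adjusted p = 7.4e-29). It then fell by 0.30 ± 0.05 on the log2 scale to day 25 (adjusted p = 1.5e-06), which still left it 13.2-fold above day 10.

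CCR1, a receptor of CCL3 and CCL5 on monocytes and other myeloid cells, rose in every interval, as did CXCR2. It lies on chromosome 3 (46201709 to 46208396, minus strand; ENSG00000163823). The 3 libraries of each day gave 0.667, 1.4 and 1.59 CPM at day 10, 24.7, 21.5 and 24.3 on day 15, 122, 121 and 130 at day 20, and 185, 186 and 190 at day 25. Each day stood above the one before with no overlap. The rise was 19.1-fold to day 15 (4.26 ± 0.12, adjusted p = 4.5e-29), 5.27-fold to day 20 (2.40 ± 0.06, adjusted p = 1.6e-29) and 1.51-fold to day 25 (0.59 ± 0.05, adjusted p = 4e-12). From day 10 to day 25 CCR1 rose 152-fold (7.25 ± 0.10, adjusted p = 2.3e-40).

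**Figure D2:**
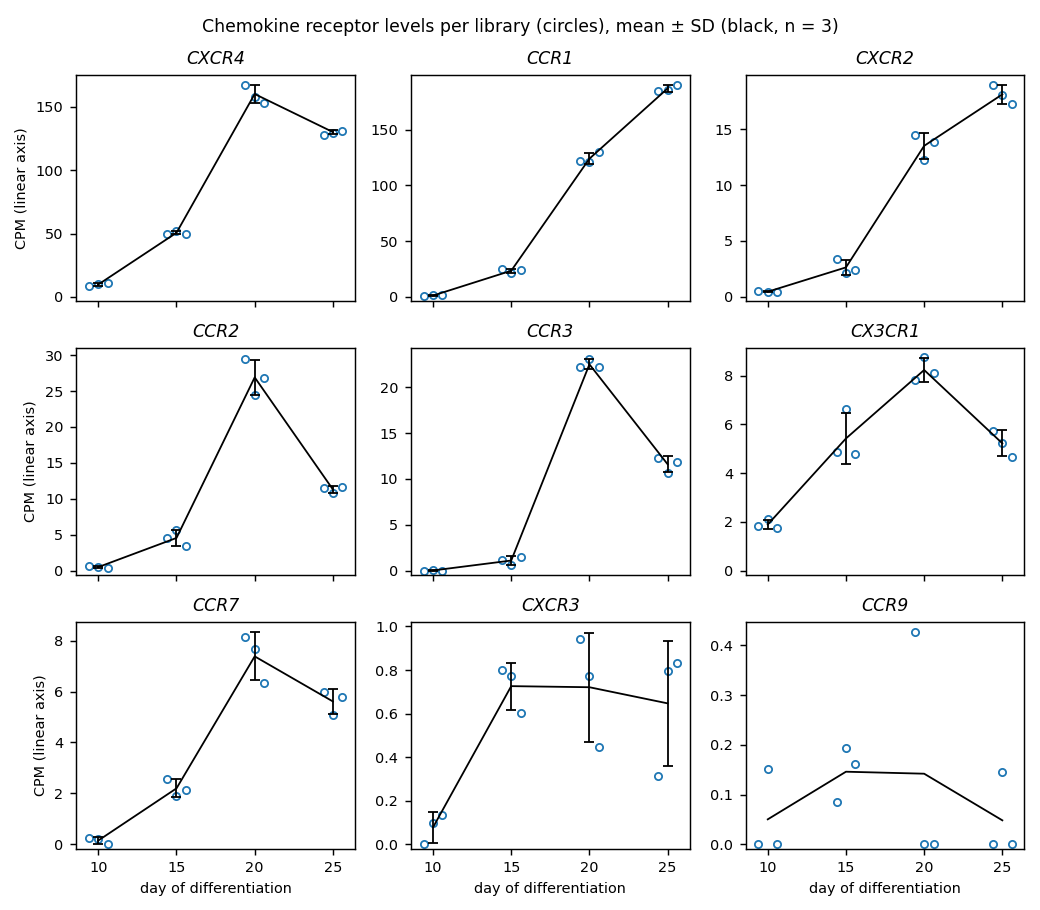
Level of each receptor in CPM (y axis, linear, scaled per panel) against the day of differentiation (x axis), with each library as a circle and the mean ± SD of 3 libraries in black; CCR9 is drawn without error bars because 6 of its 12 libraries hold 0 counts. CCR1 and CXCR2 are highest at day 25, CXCR4, CCR2, CCR3, CX3CR1 and CCR7 at day 20, and CXCR3 shows 1 step between days 10 and 15.

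CXCR2 binds CXCL8, CXCL5 and related chemokines and draws neutrophils out of marrow and into tissue. Its gene is on chromosome 2 (218125289 to 218137253, plus strand; ENSG00000180871). It read 0.508, 0.452 and 0.439 CPM at day 10, 3.37, 2.17 and 2.37 on day 15, 14.5, 12.2 and 13.8 at day 20, and 18.9, 18 and 17.2 at day 25. Libraries of different days did not overlap, and the order followed the days. CXCR2 rose 5.65-fold to day 15 (2.50 ± 0.24, adjusted p = 1.8e-12), 5.09-fold to day 20 (2.35 ± 0.16, adjusted p = 1.6e-17) and 1.34-fold to day 25 (0.42 ± 0.13, adjusted p = 0.0049). That last step was lost with library-size scaling (0.26, adjusted p = 0.082), and its adjusted p ranged from 9.2e-05 to 0.082 over the alternatives. CXCR1, a close copy of CXCR2 that also binds CXCL8, had 0 counts at day 10 and stood at 5.43 ± 0.172 CPM at day 25, and reads shared by the 2 genes could have been split between them.

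CCR2, the receptor of CCL2 that lets monocytes leave marrow, lies at 46353734 to 46360928 on the plus strand of chromosome 3 (ENSG00000121807). It read 0.667, 0.502 and 0.304 CPM at day 10, 4.6, 5.65 and 3.41 on day 15, 29.5, 24.5 and 26.8 at day 20, and 11.5, 10.8 and 11.7 at day 25. Day 20 stood above every other day, and day 25 fell between days 15 and 20 without overlap. The gene rose 9.07-fold (3.18 ± 0.23, adjusted p = 2.4e-16) and then 5.95-fold (2.57 ± 0.14, adjusted p = 4.6e-20). Between days 20 and 25 it fell by 1.25 ± 0.13 on the log2 scale (adjusted p = 1.9e-11). CCR2 and CCR1, both used by monocytes, thus moved in opposite directions after day 20. Within a library, the ratio of CCR2 to CCR1 counts averaged 0.217 at day 20 and 0.0606 at day 25.

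CX3CR1, the receptor of the membrane-bound chemokine CX3CL1 on patrolling monocytes and tissue macrophages, rose least of the 8 between days 10 and 15. It lies on chromosome 3 (39263494 to 39281735, minus strand; ENSG00000168329). Its libraries gave 1.81, 2.11 and 1.75 CPM at day 10, 4.85, 6.62 and 4.78 on day 15, 7.81, 8.77 and 8.12 at day 20, and 5.73, 5.25 and 4.67 at day 25. Days 15 and 25 overlapped, and the other days did not. CX3CR1 rose 2.84-fold (adjusted p = 5.3e-09) and 1.53-fold (0.61 ± 0.17, adjusted p = 0.0018). It then fell by 0.66 ± 0.17 on the log2 scale (adjusted p = 0.0012). Day 25 against day 15 gave -0.05 ± 0.18 (adjusted p = 0.82), which turned to 0.41 (adjusted p = 0.034) with library-size scaling, within a range of 0.034 to 0.9 over the alternatives.

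CCR3, the receptor through which eotaxins call eosinophils, went from almost no counts to its highest level within 10 days. Its gene spans 46163604 to 46266706 on the plus strand of chromosome 3 (ENSG00000183625). CCR1 lies inside that span on the other strand, and the 2 genes share no exon bases in GENCODE 29. The libraries held 0, 2 and 0 counts at day 10, 27, 13 and 38 on day 15, 729, 808 and 743 at day 20, and 392, 440 and 368 at day 25. In CPM these were 1.1 ± 0.451 at day 15, 22.5 ± 0.561 at day 20 and 11.6 ± 0.89 at day 25, with no overlap between days. With 2 counts at day 10 in all, the ratio of scaled counts was 56.8 for day 15 (95% counting interval 15.2 to 478) and 1140 for day 20 (314 to 9390), and both rises were called (adjusted p = 7.2e-12 for day 15). From day 15 to day 20 CCR3 rose 20-fold (4.32 ± 0.19, adjusted p = 3.8e-24). Among the tested receptors of those named at the outset, that was the steepest step in the interval. CCR3 then fell by 0.96 ± 0.13 on the log2 scale to day 25 (adjusted p = 5.6e-08).

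CCR7, the receptor for CCL19 and CCL21 that dendritic cells and naive T cells use to enter lymph nodes, stayed low. It lies on chromosome 17 (40553769 to 40565472, minus strand; ENSG00000126353). The 3 libraries read 0.254, 0.201 and 0 CPM at day 10, 2.57, 1.88 and 2.13 on day 15, 8.15, 7.65 and 6.33 at day 20, and 5.99, 5.06 and 5.79 at day 25. It rose 13.6-fold to day 15 (3.77 ± 0.38, adjusted p = 5.7e-12), where day 10 held 16 counts in all, and 3.35-fold to day 20 (1.74 ± 0.23, adjusted p = 1.1e-08). Day 25 lay below day 20 in every library, but the change of -0.40 ± 0.21 was not called (adjusted p = 0.11). It passed with library-size scaling (-0.56, adjusted p = 0.021), with limma-voom (-0.40, 0.024) and in a fit to those 2 days alone (-0.41, 0.016), and ranged from 0.016 to 0.32 over the alternatives.

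CXCR3, the receptor of the interferon-induced chemokines CXCL9, CXCL10 and CXCL11, is on the X chromosome (71615916 to 71618517, minus strand; ENSG00000186810). Its counts were 0, 4 and 4 at day 10, 19, 16 and 15 on day 15, 31, 27 and 15 at day 20, and 10, 33 and 26 at day 25. Day 10 lay below every other library, and the 3 later days overlapped. CXCR3 rose from 0.0784 ± 0.0701 to 0.726 ± 0.108 CPM between days 10 and 15 (3.13 ± 0.72, adjusted p = 0.00017), a ratio of 9.11 with a counting interval of 4.28 to 22.2. Days 20 and 25, at 0.721 ± 0.251 and 0.647 ± 0.288 CPM, could not be told from day 15 or from each other (-0.01 ± 0.57 and -0.15 ± 0.55, adjusted p = 0.99 and 0.85).

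CCR9, the receptor that brings T-cell precursors to thymic CCL25, was at the limit of detection on every day. Its gene lies on chromosome 3 (45886504 to 45903177, plus strand; ENSG00000173585). The libraries held 0, 6 and 0 counts at day 10, 2, 4 and 4 on day 15, 14, 0 and 0 at day 20, and 0, 6 and 0 at day 25. The 14 counts of day 20 came from 1 library. A count of 0 allows up to 0.0723 to 0.145 CPM in a single library, counting error only. CCR9 did not pass the filter on low counts. In a fit without the filter its adjusted p ran from 0.44 to 1 over 6 comparisons, so no difference between days was detectable at this depth.

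Ordered by level, days 10, 15, 20 and 25 were all distinct in the test for CXCR4, CCR1, CXCR2, CCR2 and CCR3. For CX3CR1 days 15 and 25 were not told apart, for CCR7 days 20 and 25, and for CXCR3 the 3 days after day 10.

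Of the 9 genes, CX3CR1, CCR1, CCR2, CCR3 and CCR9 lie on the short arm of chromosome 3. They did not share a course: CCR1 was still rising at day 25 while its neighbours CCR2 and CCR3 had fallen, and CCR9 stayed near 0. Sequence upstream of the RefSeq start sites (GRCh38.p14) was found for 8 of the 9, in 14 windows of 250 bases, with none for CCR7. The windows of CCR1 and CCR3 are shown because these neighbouring genes parted after day 20, and that of CXCR4 because it is the other abundant receptor. For CCR3 and CXCR4, which have 2 and 3 windows, 1 is shown, and each stretch ends where an annotated exon begins. The CCR3 stretch lies inside the annotated span of its gene, before an internal start site. CCR1 is from chr3:46208397-46208563 (minus strand), CCR3 from chr3:46242131-46242380 (plus strand) and CXCR4 from chr2:136118166-136118399 (minus strand). Capitals mark matches, on either strand, to a RUNX core (TGTGGT), paired C/EBP sites (TTGCNNAA) or a PU.1 and ETS core (GAGGAA).
CCR1: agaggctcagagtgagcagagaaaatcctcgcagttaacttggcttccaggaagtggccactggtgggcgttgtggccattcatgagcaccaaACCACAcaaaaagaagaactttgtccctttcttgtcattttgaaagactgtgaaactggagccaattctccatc
CCR3: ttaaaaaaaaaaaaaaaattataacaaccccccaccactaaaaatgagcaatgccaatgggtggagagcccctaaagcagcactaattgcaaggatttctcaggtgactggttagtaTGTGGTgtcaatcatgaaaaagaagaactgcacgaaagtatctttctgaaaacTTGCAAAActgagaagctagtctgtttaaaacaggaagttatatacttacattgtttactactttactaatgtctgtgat
CXCR4: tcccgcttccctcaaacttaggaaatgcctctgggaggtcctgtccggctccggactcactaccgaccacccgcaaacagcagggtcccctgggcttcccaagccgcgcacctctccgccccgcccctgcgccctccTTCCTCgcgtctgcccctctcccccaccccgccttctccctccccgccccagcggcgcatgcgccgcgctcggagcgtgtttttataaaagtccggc
The CCR1 stretch held 1 RUNX match, the CCR3 stretch 1 RUNX and 1 C/EBP match, and the CXCR4 stretch 1 PU.1 and ETS match, none of which overlapped another. These letters are common: of 34943 RefSeq windows of 250 bases, 11% held the RUNX core, 9.06% the C/EBP sites and 23.6% the PU.1 and ETS core. A first form of the GATA site, AGATAA, is in 9.19% of those windows and had no match in any window of the 8 genes. Nor did the other form, TGATAA, which is in 6.67%. The AP-1 letters TGANTCA, in 6.59%, matched in that of CCR2. A match describes the letters only.

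Levels of different receptors were compared per kilobase of exon. Summed over the 9 genes they came to 5.78 ± 0.728 CPM per kb at day 10, 36.5 ± 0.479 at day 15, 140 ± 3.43 at day 20 and 143 ± 1.67 at day 25. Days 20 and 25 differed by less than the spread at day 20, although with library-size scaling they came to 163 ± 2.77 and 148 ± 0.954. The make-up of the sum, which no scaling between libraries alters within a library, went on changing. CXCR4 made up 76.3% of it at day 10, 62.3% at day 15, 51.1% at day 20 and 40.8% at day 25. CCR1 took 7.54%, 23.6%, 32.3% and 48% on the same days. CX3CR1, the second of the receptors at day 10 with 9.03%, came to 1% at day 25. CCR3 and CCR2 held their highest shares at day 20, 4.49% and 5.13%.

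**Figure D3:**
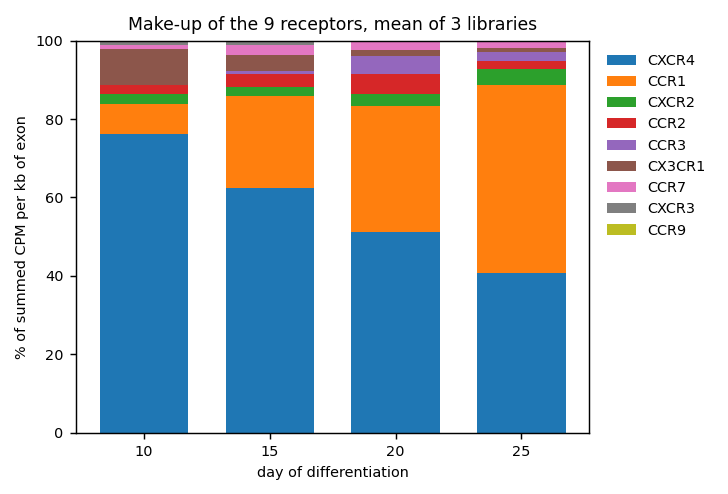
Share of each receptor in the summed CPM per kilobase of exon of the 9 genes (y axis, percent) by day (x axis), as the mean of 3 libraries. CXCR4 goes from 76.3% to 40.8% between days 10 and 25 and CCR1 from 7.54% to 48%.

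CCR1 overtook CXCR4 between days 20 and 25. At day 20 CXCR4 stood at 71.7 ± 3.33 CPM per kb and CCR1 at 45.4 ± 1.76, and at day 25 they stood at 58.3 ± 0.734 and 68.5 ± 1.05. The ratio of CCR1 to CXCR4 counts within a library, which no scaling between libraries can alter, was 0.726 to 0.848 at day 20 and 1.44 to 1.45 at day 25. Set among all tested genes with an exon length, CXCR4 per kb lay above 63.6% of them at day 10 and 98.2% at day 20, and CCR1 above 30.1% at day 10 and 97.8% at day 25. CCR3 lay above 2.63% at day 10 and 69.6% on its highest day, day 20.

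The ligands of these receptors took other courses. Of 26 ligand genes, 20 were tested, and all 20 rose from day 10 to day 15 (median 4.11), beside 42.4% of all tested genes. From day 15 to day 20, 7 rose and 10 fell (median -0.86), beside 40.6% and 36% of tested genes, so the rises are near their share. From day 20 to day 25, 2 rose and 17 fell (median -1.83), beside 24.5% and 25.1%. Their summed level went from 797 CPM at day 10 through 9040 at day 15 and 1150 at day 20 to 501 at day 25. The ligand list thus had its highest sum at day 15, 5 to 10 days before the highest level of most receptors. That difference between the lists was not tested. A single ligand, PPBP, gave most of the sum on the first 2 days, 593 of 797 CPM at day 10 and 6760 of 9040 at day 15. Some ligands peaked later, as given below.

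PPBP, a platelet chemokine that acts on CXCR2, rose from 593 ± 16.7 to 6760 ± 77.3 CPM and then fell to 88 ± 1.75 and 11.6 ± 2.61. Markers of megakaryocytes and platelets, 6 genes, moved along with it, at 4080 to 4410, 15600 to 16400, 298 to 303 and 70.6 to 74.4 CPM on the 4 days, and their part in the ligand sum was not tested. CXCL8, the classical neutrophil chemokine and a ligand of CXCR2, peaked later, at 622 ± 6.22 CPM on day 20, and fell by 1.49 ± 0.04 on the log2 scale to day 25 while CXCR2 rose.

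For CCR1, the ligand CCL5 peaked at 684 ± 28.9 CPM on day 15 and was at 1.67 ± 0.835 on day 25, and CCL3 peaked at 22.1 ± 1.05 on day 20. CCL2, the main ligand of CCR2, was highest at day 20 like its receptor, with 159 ± 10.9 CPM, and both fell by day 25. CCL24, an eotaxin and ligand of CCR3, was the exception among abundant ligands: it went from 0.35 ± 0.244 CPM to 112 ± 2.93 at day 25, rising in every interval. CCL11, the founding eotaxin, had 0 counts on all 4 days.

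Like CXCL6 of the same list, which went from 22.8 ± 0.544 to 32 ± 0.909 CPM, CXCL12 changed little to day 15. It stood at 15.6 ± 0.215, 23.7 ± 2.14, 39.6 ± 0.895 and 31.5 ± 2.11 CPM on the 4 days, with a log2 fold change of 0.61 ± 0.08 to day 15 (adjusted p = 1.6e-08) that was lost with library-size scaling (0.07, adjusted p = 0.42), against the 2.37 of CXCR4. The CXCR3 ligands CXCL10 and CXCL11 were found mainly at day 15, at 54.6 ± 1.66 and 23.5 ± 1.98 CPM. CXCL11 had 0 counts at day 25, where CXCR3 was within the spread of its day 15 level. The thymic and lymph node ligands CCL19, CCL21 and CCL25, which act on CCR7 and CCR9, had too few counts to be tested.

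**Figure D4:**
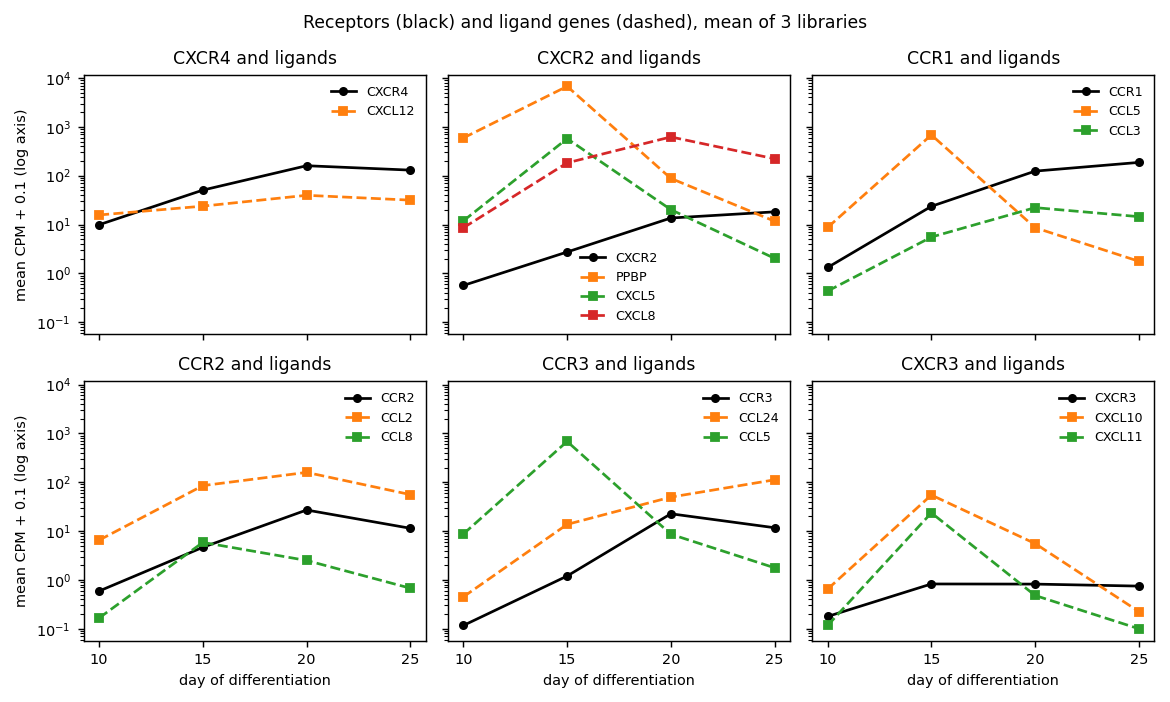
Mean level of 6 receptors (black) and of ligand genes from the fixed list (dashed) as CPM plus 0.1 on a log axis (y) by day (x), for the mean of 3 libraries. Heights of different genes are not corrected for length, so the courses are to be compared: PPBP, CXCL5, CCL5, CXCL10 and CXCL11 peak at day 15, whereas CCL24 is highest at day 25.

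Markers of the cell types that carry these receptors moved too. CCR3 had its highest level at day 20 and kept 51.6% of it at day 25. The 6 eosinophil markers summed to 110 to 119 CPM at day 10, 9320 to 9890 at day 15, 5640 to 5850 at day 20 and 817 to 837 at day 25. Their highest sum thus came at day 15, when CCR3 was at 4.89% of its highest level. SIGLEC8, a surface lectin of mature eosinophils, was the 1 of the 6 that rose between days 15 and 20 (40.6% of tested genes). It went from 21.7 ± 2.39 to 50.6 ± 1.12 CPM and fell to 17.9 ± 1.25 at day 25. The 5 mast cell and basophil markers summed to 39.2 to 41 CPM at day 10 and to 364 to 393 at day 25, the highest day of the sum. They did not move as one after day 20: CPA3 and TPSAB1, mast cell proteases, rose, while HDC, which makes histamine, fell by 0.93 ± 0.05 on the log2 scale and 2 were not called. In that interval 24.5% of tested genes were called higher and 25.1% lower. The part of eosinophils, mast cells and basophils in the CCR3 counts was not tested.

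For CCR1 and CXCR2 the course was near that of the summed 6 monocyte and macrophage markers. That sum at days 10, 15 and 20 was 2.54%, 15% and 51.9% of its day 25 value. CCR1 stood at 0.652%, 12.6% and 66.3% of its day 25 level and CXCR2 at 2.57%, 14.6% and 74.6%. CD68 and CSF1R made up most of the marker sum at day 25, with 1800 ± 67.5 and 1370 ± 15.5 of 4010 CPM. The 6 did not move as one after day 20: 4 rose, MRC1 fell by 0.55 ± 0.05 on the log2 scale and 1 was not called. From day 20 to day 25, 24.5% of tested genes were called higher and 25.1% lower, to be set beside the neutrophil list too. Among the 6 neutrophil markers the sum was highest at day 20, at 13100 to 13200 CPM, and stood at 5820 to 5930 at day 25. MPO, a granule enzyme made early in the lineage, made up most of that sum, with 11900 ± 46.8 CPM at day 20 and 4330 ± 42 at day 25. The other 5 included 4 that rose to day 25, as CXCR2 did: LTF from 133 ± 3.71 to 396 ± 5.36 CPM, CEACAM8 from 53.5 ± 1.09 to 99.4 ± 2, and FCGR3B and CSF3R by less, where the rise of CSF3R turned to -0.05 (adjusted p = 0.23) with library-size scaling. CCR2, whose level at day 25 was 42% of that at day 20, did not follow the monocyte and macrophage sum, although MRC1 of that list fell too. At day 25 CCR7 stood at 76% of its day 20 level, the summed 5 dendritic cell markers at 69.3% and the T-cell sum at 41.1%. CD1C and CLEC10A made up most of that dendritic sum, with 16.9 ± 2.36 and 19 ± 1.66 of 45.2 CPM. Of the 5, 3 fell at least 2-fold from day 20 to day 25, beside 6.86% of tested genes. By median log2 fold change from day 20 the dendritic and T-cell lists were close, at -1.15 and -1.30, against -0.40 for CCR7. No marker list was at 0 as a whole on any day, although LAMP3 and FLT3 of the dendritic list and CEACAM8 of the neutrophil list had 0 counts at day 10. Their part in the receptor levels was not tested.

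**Figure D5:**
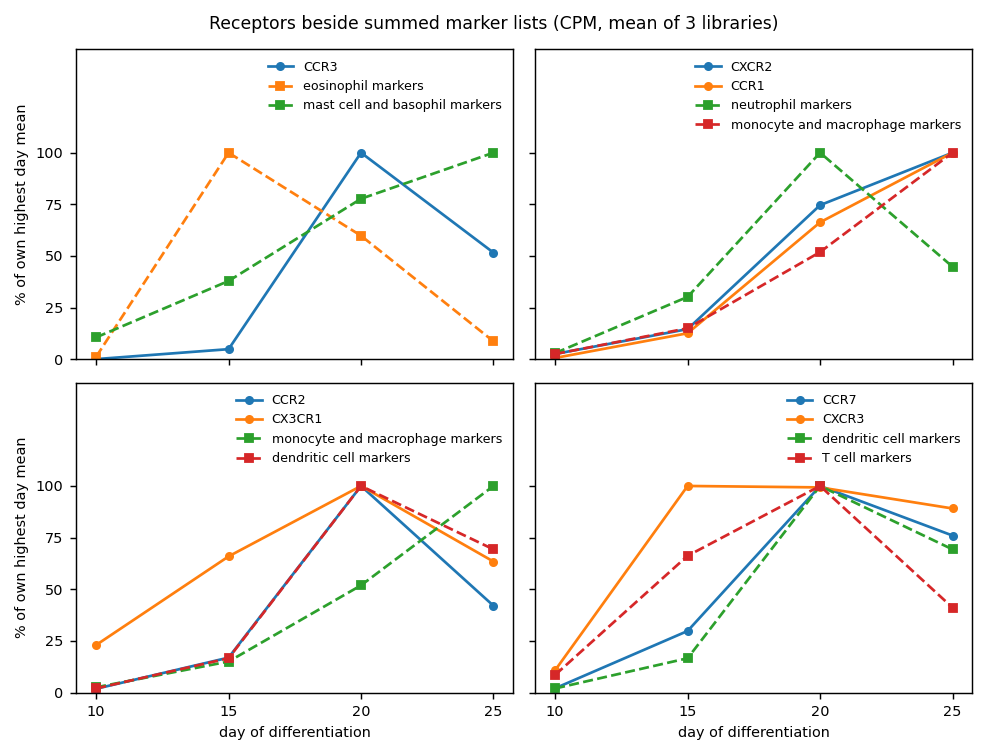
Receptors (solid lines, circles) and summed marker lists (dashed lines, squares) as a percentage of their own highest day mean (y axis) by day (x axis), for means of 3 libraries. The eosinophil sum peaks at day 15 and CCR3 at day 20. CCR1, CXCR2 and the monocyte and macrophage sum are all highest at day 25.

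The 9 receptors belong to a larger family, and its other members were counted from lists chosen by name. Among 9 other chemokine receptors, 7 could be tested: 5 rose and 0 fell to day 15, 5 rose and 1 fell to day 20, and 3 rose and 3 fell to day 25, with medians of 3.19, 3.34 and -0.58 against 0.20, 0.10 and -0.03 over all tested genes. The shares of tested genes called higher were 42.4%, 40.6% and 24.5%, and lower 30.8%, 36% and 25.1%. In a fit to days 10 and 15 alone, 3 rose to day 15. The 1 that fell to day 20 was CCR4, a receptor of type 2 helper and regulatory T cells that platelets also carry. It stood at 7.81 ± 0.435 CPM at day 10, 175 ± 8.67 at day 15, 2.13 ± 0.299 at day 20 and 0.306 ± 0.0194 at day 25, a course unlike that of any of the 8 tested receptors, none of which fell between days 15 and 20. The markers of megakaryocytes and platelets given above moved the same way, and their part was not tested.

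Atypical receptors bind chemokines without G protein signalling and remove them. Of 5 tested, 3 rose to day 15, 2 rose and 2 fell to day 20 (1 rose without day 15 replicate 1 or without day 20 replicate 1), and 1 rose and 3 fell to day 25. Those counts to day 20 are near the shares of all tested genes, 40.6% higher and 36% lower. To day 15 the shares were 42.4% higher and 30.8% lower. To day 25 they were 24.5% higher and 25.1% lower, so the 1 rise there is near its share too. ACKR3, which clears CXCL12, rose from 3.69 ± 1.25 to 24.3 ± 3.64 CPM between days 15 and 20 and fell to 12.6 ± 2.13, directions it shared with CXCR4 in those 2 intervals. ACKR2, a scavenger of inflammatory CC chemokines, rose to 33.3 ± 2.02 CPM at day 15 and fell to 2.8 ± 0.29 at day 20. CCRL2, which presents rather than clears its ligand, peaked at day 15 with 75 ± 2.94 CPM.

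Downstream of the receptors, 24 genes of signalling and desensitisation were tested. To day 15, 17 rose and 4 fell (median 0.40), to day 20, 11 rose and 11 fell (0.06), and to day 25, 18 rose and 4 fell (0.28). The split to day 20 is near that of all tested genes, 40.6% higher and 36% lower, while to day 15 and day 25 the shares of tested genes called higher were 42.4% and 24.5%. This list depended on the scaling, as did the calls over all tested genes. With library sizes, 11 rose and 12 fell to day 15, 18 rose and 5 fell to day 20, and 12 rose and 6 fell to day 25. The share of higher among all called genes was then 39.2%, 72.1% and 31.5%. PREX1, an exchange factor that links G proteins to Rac, went from 26.1 ± 1.54 CPM at day 15 to 161 ± 5.3 at day 20 and 235 ± 8.28 at day 25. RGS2, a brake on G protein signalling, rose in every interval, from 3.76 ± 0.934 to 77.7 ± 4.59 CPM. RGS18, a brake known from platelets, and the receptor kinase GRK5 peaked at day 15, at 936 ± 26.1 and 145 ± 11.4 CPM. To day 20 RGS18 fell by 4.34 ± 0.05 on the log2 scale and GRK5 fell by 3.08 ± 0.07.

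Receptors for other attractants rose in the first interval too. All 15 tested rose to day 15 (median 3.36), 13 rose and 2 fell to day 20 (0.89), and 6 rose and 7 fell to day 25 (0.07). Beside them, 42.4%, 40.6% and 24.5% of tested genes were called higher over these intervals and 25.1% lower in the last. FPR2, a formyl peptide receptor, rose from 0.391 ± 0.077 to 17.4 ± 1.9 CPM by day 15, whereas its relative FPR3 rose mainly later, from 0.639 ± 0.178 at day 15 to 14.3 ± 1.27 at day 20. HRH4, a histamine receptor of eosinophils and mast cells, rose from 0.0965 ± 0.114 CPM at day 10 to 11.4 ± 2.54 at day 15, the interval in which CCR3 reached 1.1 CPM. The rise of FPR3 to day 15 was lost with library-size scaling (0.64, adjusted p = 0.13) and in a fit to those 2 days alone (1.02, 0.12). That of HRH4 to day 20 was lost without day 15 replicate 3 (0.21, adjusted p = 0.26) and without any 1 of the day 20 libraries.

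Among all tested genes with a plain symbol, those closest in course to each receptor were taken by the smallest root mean squared difference of centred log2 CPM over the 12 libraries. These libraries fall into 4 days, so any genes with a like day pattern score as close, and r describes only that. CLEC7A, the beta-glucan receptor of myeloid cells, was nearest to CCR1, with a difference of 0.15 and r = 0.999, and had 138 ± 3.47 CPM at day 25. IL6R, the interleukin 6 receptor, was nearest to CXCR2 (0.17, r = 0.997). RASSF2 and JUN were nearest to CXCR4 (0.14 and 0.15), and PIM1, a kinase gene, to CX3CR1 (0.16, r = 0.980). SIGLEC1, a macrophage lectin, was nearest to CCR2 (0.28, r = 0.991) and went from 278 ± 9.8 CPM at day 20 to 141 ± 2.66 at day 25. LILRB5 came nearest to CCR3 (0.41), with 0 counts at day 10. The closest gene to CXCR3, WNT9A, was no nearer than 0.46. CCL3L3 was nearest to CCR7 (0.36), but it has near-identical copies and its counts are uncertain. Among the receptors themselves CCR2 and CCR7 were the closest pair (0.54) and CX3CR1 and CCR3 the farthest apart (2.56).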

How the data were processed

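RNA was measured in 12 bulk libraries, 3 per day at days 10, 15, 20 and 25, grouped by the day in the labels. The authors deposited a table of raw counts of reads, with no normalisation. Per the labels, libraries were made by ligation-mediated sequencing and read as single reads. Per the submitters' processing notes, the genome build was GRCh38. The sources used here do not give the aligner, counter, annotation or use of strand, so overlapping genes and near-identical copies cannot be told apart. Genes with 2 counts outnumbered those with 1 in all 12 libraries, so counts may not be independent molecules, and counting intervals and floors cover counting error only.

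Symbols were matched to 25321 of 36601 IDs, and the 11280 others, with 0.441% of counts, stayed in the fit. Coordinates and exon lengths are from GENCODE 29. The filter was filterByExpr at a minimum count of 10, which left 20183 genes. Libraries were scaled by TMM (factors 0.753 to 1.17) and fitted together with edgeR 4.0.16 in R 4.3.3 (glmQLFit, robust, no covariates). Days were compared by glmQLFTest with Benjamini-Hochberg adjustment over all tested genes. The SE is the size of the log2 fold change divided by the square root of F. The fit was tried on simulated data in which few genes changed, evenly up and down, so that trial cannot check the scaling here. Counting intervals are exact 95% intervals on summed counts. The floor was 3 counts, 0.0287 to 0.0433 CPM over a day.

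The receptors, lists, tests and the naming rule were chosen with earlier results of these data known. All 9 receptors are named. The rule took up to 4 genes per list with the largest change between successive days among those called with at least 10 CPM, ligands at that level, genes with 0 counts, and the 2 genes most alike each receptor, of which some are described. CXCR1 and CX3CL1 are named beside their partners. SIGLEC8, the stromal sum and the mast cell, neutrophil, monocyte, dendritic cell and γδ receptor markers were singled out after their values were seen. Some genes taken by the rule are left out here.

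The alternatives were DESeq2 1.42.0 and its size factors, library-size scaling, no filter and a stricter one (1 CPM and 10 counts in 3 libraries), limma-voom (limma 3.58.1), a replicate block, the 2 days alone, an adjusted p under 0.01, and leaving out each library.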

Additional observations from a re-analysis of the deposited data

How the results depend on the processing

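Of 1001 receptor log2 fold changes recomputed under 21 alternatives, 996 kept their call, either called in the same direction or not called in both fits. Changes not called could still differ in sign: that of CXCR3 for day 20 against day 15 ran from -0.24 to 0.61. The exceptions were CXCR2 and CCR7 for day 25 against day 20, as given above, and CX3CR1 for day 25 against day 15, which turned from -0.05 to 0.41 (adjusted p = 0.034) with library-size scaling; the cause was not tested. Leaving out any 1 of the 12 libraries changed no receptor call. The number of receptors called stayed at 7 to 8, 7, 6 to 7 and 7 to 8 for days 15 and 10, 20 and 15, 25 and 20, and 25 and 10; the 7 for days 15 and 10 and for days 25 and 10 come from fits in which CXCR3 was filtered out. Over all genes the counts of calls were 13330 to 15257, 14098 to 16249, 8206 to 10862 and 13742 to 15511. For genes outside the 9 receptors, PREX1 turned to -0.26 (adjusted p = 0.00016) for day 15 against day 10 and CSF3R to -0.05 (adjusted p = 0.23) for day 25 against day 20, both with library sizes. Of the other recomputed values of such genes, 17 lost their call, some of FPR3 and HRH4 among them, and 3 gained one. Same-numbered libraries did not deviate together (r from -0.02 to 0.02, and 4 of 12 libraries closest to their own number). No pairing by number was thus seen, but with 3 libraries a day this cannot exclude that same-numbered libraries shared a culture. With a replicate block the receptors called were 8, 7 and 6 in the successive intervals, and no receptor call changed. Depth limits CCR9, CXCR3 and the day 10 levels of CCR3 and CCR7, which rest on 6, 8, 2 and 16 counts at day 10.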
